A study of Mus musculus with 12 samples.

Results

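Cbx5 encodes heterochromatin protein 1 alpha (HP1 alpha) and was followed as a single gene across 12 RNA sequencing libraries of a mouse mammary cancer line. It was chosen for its role in heterochromatin and in the silencing of retroelements, and was found by its symbol, 1 of the 982 genes in the table of normalized values. The cells were 6DT1, a line grown from a mammary tumor of a MMTV-Myc mouse, in which the Myc oncogene is driven by a promoter active in mammary epithelium. Per the labels, sgControl was the wild type line given the sgScranble control guide, and sg1, sg2 and sg3 were Resf1 KO lines made by CRISPR-Cas9 with 3 different guides. Per the labels the lines were grown in DMEM with serum and puromycin, and each was sequenced in 3 libraries. The study's methods describe sorted GFP-positive cells and clones raised from single cells for the edited lines, and do not say whether sgControl was cloned. All 3 libraries of a group were therefore dishes of 1 line, the p-values measure the spread between those dishes only, and a guide cannot be told apart from the clone that carried it. Resf1 itself was not analysed here, and no value of the edited gene stands beside these labels.

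HP1 alpha is a reader of silent chromatin. Its chromodomain binds histone H3 methylated at lysine 9, its chromoshadow domain forms dimers that bind other silencing proteins, and the spreading of such complexes compacts repeat-rich chromatin. RESF1, the product of the edited gene, is known from embryonic stem cells as a partner of SETDB1, an enzyme that places this methyl mark on retroelements, so Cbx5 codes for a protein that acts on the mark downstream of that enzyme. The comparisons ask whether the transcript of this reader differed between the control line and each edited line.

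Cbx5 (ENSMUSG00000009575) lies on chromosome 15, minus strand, and its longest annotated transcript has 8803 bases. No other annotated gene overlaps it. Cbx5 has 2 listed start sites, and which of them these cells use was not measured. The bases just upstream of the outermost one are shown because Cbx5 is transcribed in all 12 libraries at a high level. In RefSeq (GRCm38.p6) this window is chr15:103239905-103240102 on the minus strand, and it is printed 5′ to 3′ in the direction of the gene, with capitals for the motif matches found.
Cbx5 upstream window: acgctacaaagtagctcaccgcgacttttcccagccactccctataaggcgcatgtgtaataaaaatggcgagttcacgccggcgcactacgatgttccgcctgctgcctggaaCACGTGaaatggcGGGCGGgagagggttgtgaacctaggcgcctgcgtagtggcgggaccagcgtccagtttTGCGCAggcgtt
The searched motifs were the E-box CACGTG, the GC box GGGCGG, the NRF1 half-site TGCGCA and the CCAAT box CCAAT, each on both strands. CACGTG was found 1 time, and 4.27% of 32851 annotated upstream windows of the same length hold it. GGGCGG was found 1 time against 24.3% of windows, TGCGCA 1 time against 4.28%, and CCAAT 0 times against 28.1%. The matches did not overlap. They describe letters in this window, and binding to them was not measured.

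Cbx5 was an abundant transcript. Its mean normalized value over the 12 libraries was 11710, rank 19 among the 982 genes, and per kilobase of its longest transcript it was 1330, rank 90 among the 972 genes with an annotated length. The values are the authors' estimated read counts divided by 1 size factor per library. The size factors were not at hand and were inferred, as the multiplier per library that made most values under 100 near whole. On that estimate Cbx5 received 9205 to 16147 reads per library, for which counting error alone would be 0.787% to 1.04%. The table sums were 2069298 to 2713951 per library and cover part of a library, so total depth is unknown. A single feature without a symbol in the annotation used here, ENSMUSG00000119584, held 16.1% to 32.9% of these sums, a share that enters every value scaled to the table total.

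Cbx5 RNA was higher in the sg1 line than in every other library. In sgControl the 3 values were 10265, 10269 and 10265. In sg1 they were 15709.8, 15662 and 16117. The sg2 libraries gave 9904, 10555 and 10218. The sg3 libraries gave 10716, 10266 and 10587. The lowest sg1 value stood 4946 above the highest value elsewhere, while the other 9 libraries, both edited lines included, together spanned 812.7. The order of the means was therefore sg1 at 15829.6 ± 250.1, sg3 at 10523 ± 231.9, sgControl at 10267 ± 2.43 and sg2 at 10226 ± 326.0 (SD, n = 3 each), and the ranges of the last 3 of these overlapped. In bulk RNA, more cells with the transcript and more transcript per cell cannot be told apart.

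**Figure D1:**
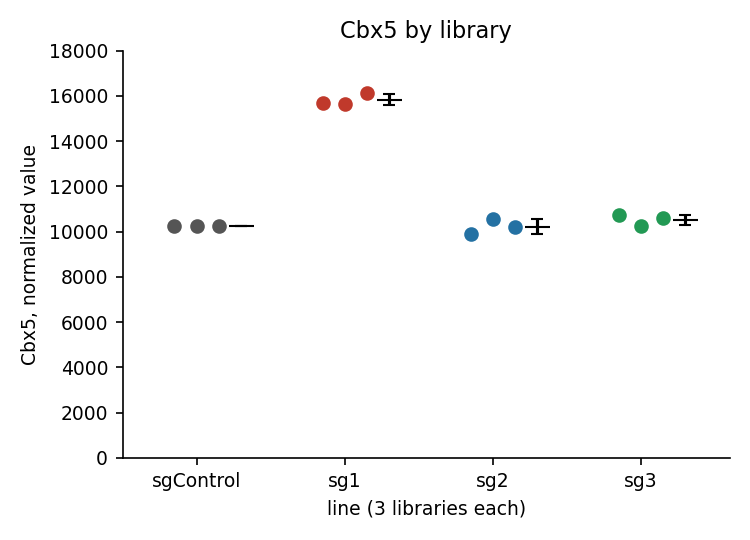
Normalized value of Cbx5 (vertical axis, the authors' scaling, starting at 0) in each of the 12 libraries (points), with the mean and SD of each line (horizontal bar and whiskers, n = 3). The 3 sg1 libraries sit between 15662 and 16117, and the other 9 between 9904 and 10716.

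Against sgControl, Cbx5 in sg1 differed by 0.62 on the log2(value + 1) scale (SE 0.044, 95% interval 0.53 to 0.72), a fold of 1.54 (1.45 to 1.64), with a limma adjusted p of 1.24e-09 over 982 genes. This placed it 57th of 982 by p-value. Of the genes in the table, 100% passed the mean of the edited lines against sgControl, and the table appears limited on such a contrast. Cbx5 was at -0.0063 in sg2 and 0.035 in sg3, so its presence there may rest on sg1. The sg1 p-value and rank are therefore given as a description. The sg1 difference kept its call at 0.41 with libraries scaled to the table total and at 0.32 after correction for transcript length and GC content, both smaller by over 1.5 times. The table gives context for that call: 89.2% of its genes passed the threshold of 0.05 between sg1 and sgControl, 50.1% were called higher in sg1, and in 49.9% all sg1 libraries lay above all control libraries. A call of this kind was therefore the usual state of a gene in this table. The 492 genes called higher were 56.2% of the 876 called, a share that was 45.7% when libraries were scaled to the table total. An exact two-sided permutation test over the 3 and 3 libraries gave p = 0.1, the smallest that this design allows.

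In sg2, Cbx5 differed from sgControl by -0.0063 on the log2 scale (95% interval -0.099 to 0.086, limma adjusted p = 0.897), and 59.7% of genes passed the threshold in that contrast. In sg3 the difference was 0.035 (95% interval -0.057 to 0.13, limma adjusted p = 0.482), beside 59.9% of genes called. The intervals correspond to folds of 0.934 to 1.06 in sg2 and 0.961 to 1.09 in sg3, so that a difference of the size seen in sg1 lay outside both. The exact two-sided permutation p-values were 0.7 for sg2 and 0.2 for sg3. These small differences depended on the scaling. In sg2 it was -0.21 with the table total and -0.19 with the length and GC correction, both past the threshold, and in sg3 it was -0.13 with that correction and 0.13 with scaling to genes outside chromosome 15, again both past it. These 3 contrasts share the sgControl libraries, whose Cbx5 values happened to lie very close together. Their log2 SD of 0.00034 was the smallest in the table, with 0 of 982 genes below it, and the median gene had 0.092. It was also smaller than the estimated counting error of Cbx5 in those libraries. The limma interval does not rest on that SD alone, because it draws on the spread in all 4 lines and over all genes.

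The lines were next compared with each other without the control. Cbx5 differed among the 3 edited lines with a limma adjusted p of 5.25e-10, in a test that 75.3% of genes passed. Cbx5 may be in the table through its sg1 values, so this p-value and those of sg1 below are a description. It was higher in sg1 than in sg2 by 0.63 on the log2 scale (95% interval 0.54 to 0.72, fold 1.55, limma adjusted p = 8.91e-10, 67.6% of genes called) and higher than in sg3 by 0.59 (0.50 to 0.68, fold 1.504, limma adjusted p = 2.13e-09, 65.7% of genes called). The difference of sg3 from sg2 was 0.042 (-0.051 to 0.13, limma adjusted p = 0.565), where 30.5% of genes were called.

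The mean of the 3 edited lines exceeded sgControl by 0.22 on the log2 scale (95% interval 0.14 to 0.29). That contrast is given as a description, since 100% of the genes in the table passed it and the table appears to have been limited on such a contrast, so that the presence of Cbx5 in the table may itself rest on these values. Under the authors' scaling sg1 was at 0.62, sg2 at -0.0063 and sg3 at 0.035. The mean no longer passed the threshold with the table total (0.045) or with the length and GC correction (0.00048). The exact two-sided permutation test of the 9 edited against the 3 control libraries gave p = 0.255. Cbx5 was among the 137 genes, 14% of the table, that were called higher in sg1 and passed the threshold in neither of the other lines.

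The position of Cbx5 was set beside that pattern, because 94 of the 982 genes lie on chromosome 15. In sg1 against sgControl, the other 93 had a median log2 difference of 0.61, a fold of 1.53 (quartiles 0.45 to 0.80 on the log2 scale), beside 0.11 for the 878 genes of other chromosomes (quartiles -0.35 to 0.59). Of the 93, 77 were called higher and 8 lower, beside 50.1% and 39.1% of all genes. Elsewhere 406 of 878 were called higher and 374 lower. The sg1 difference of Cbx5 was thus in the middle of those of its chromosome, with 46 of the other 93 genes (49.5%) above it. Its 95% interval in sg1 held the point estimates of 32 of the 93 (34.4%) and of 63 of the 878 elsewhere (7.18%). Genes called higher in sg1 and in neither of the other lines were 49 of the 93 (52.7%) and 86 of the 878 (9.79%). These are counts over genes of shared libraries, and no test was made on them. The table also appears limited to genes that differed between the edited lines and control. A gene near 0 in sg2 and sg3 could then enter mainly through sg1. The medians and shares given here may partly follow from that selection, and chromosome 15 genes outside the table were not seen.

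In sg2 and sg3 the same 93 genes had medians of 0.030 and 0.0014 against sgControl. In sg2, 10 were called higher and 19 lower, beside 30.2% and 29.4% of all genes, and in sg3, 11 higher and 26 lower, beside 26.5% and 33.4%. The split of all calls turned with the scaling. Of the genes called in sg2, 50.7% were higher under the authors' scaling, 21.9% with the table total and 63.2% with scaling outside chromosome 15, and of those called in sg3, 44.2%, 27.4% and 64.7% were. Compared directly, chromosome 15 had a median of 0.58 in sg1 against sg2, with 82 of 93 genes called higher (40.9% of all genes) and 3 lower (26.7%), and 0.58 in sg1 against sg3, with 81 higher (42.5% of all genes) and 2 lower (23.2%).

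**Figure D2:**
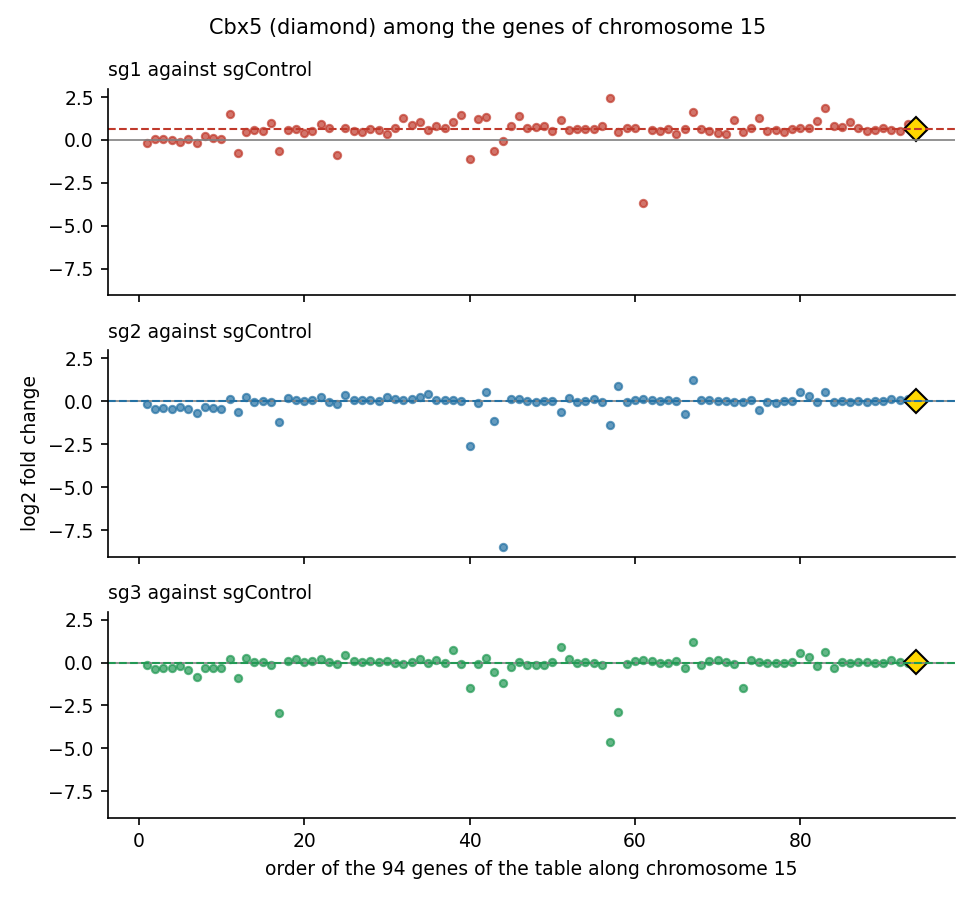
Log2 difference from sgControl (vertical axis) of the 94 genes of chromosome 15 in the table, in their order along the chromosome by annotation (horizontal axis, rank), for sg1, sg2 and sg3. Cbx5 is the diamond at the end of the order, the dashed line is the median of the other 93 genes, and the sg1 panel has that line at 0.61 with 83 of 93 genes above 0. On other chromosomes 52.2% of genes were above 0 in sg1.

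Along the chromosome the pattern had an edge that was noticed after the values were seen. The first 10 genes in order differed from sgControl by -0.20 to 0.22 in sg1, with a median of 0.066. The 83 later genes, Cbx5 left out, had a median of 0.65 in sg1, and 76 of them were above 0. In sg2 and sg3 the first 10 genes all lay below 0, with medians of -0.41 and -0.32, and the later 83 had medians of 0.041 and 0.016. Of the 878 genes on other chromosomes, 52.2% were above 0 in sg1, 47.6% in sg2 and 46.5% in sg3. In a table limited to genes differing from control, genes near 0 in sg1 could enter through sg2 and sg3. The later genes could enter through sg1, so the edge may partly follow from that selection. Cbx5 is the last gene of the table in this order and belonged to the later stretch. DNA copy number was not measured.

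Cbx5 was also expressed relative to the other chromosome 15 genes in each library. On that scale, with the sgControl mean at 0, Cbx5 lay between -0.00085 and 0.0013 in sgControl and between 0.0029 and 0.062 in sg1, then between -0.060 and 0.050 in sg2 and between 0.00050 and 0.10 in sg3 (log2), so that the edited lines overlapped. The sg1 difference there was 0.030. This scaling was added after Cbx5 had been seen to lie near the median of its chromosome, so it restates that value on another scale and is given as a description. Against the median of all 982 genes, which moved by 0.20 in sg1, Cbx5 was 0.42 higher, a gap that a size factor cannot move because it shifts both alike. It was 0.31 higher than that median after correction for transcript length and GC content.

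The nearest genes of the table were then read one by one. The 5 preceding Cbx5 are Aaas, a nuclear pore protein, Prr13, a proline-rich protein, Map3k12, a stress-pathway kinase, Atf7, a transcription factor, and Calcoco1, a coiled-coil coactivator. All 5 were called higher in sg1 and none was called in sg2 or sg3, where 50.1% of all genes were called higher in sg1 and 14% in sg1 with no call in the other lines. With scaling to the other chromosome 15 genes, of which these 5 are a part, 1 of the 5 was called, beside 17.6% of all genes called higher in sg1 there. Atf7, which is itself known for a link to H3K9 methylation, was 2008 to 2122 in sgControl and 2961 to 3086 in sg1, beside 2051 to 2262 for sg2 and 2006 to 2168 for sg3, a log2 difference of 0.54 in sg1 (limma adjusted p = 5.06e-08). Prr13 was 1219 to 1291 in sgControl and 1982 to 2067 in sg1, with 1174 to 1324 over the sg3 libraries, a difference of 0.69 (limma adjusted p = 7.41e-09). Calcoco1 had the largest of the 5, at 0.93 (limma adjusted p = 2.64e-07), going from a mean of 331.4 ± 32.0 in sgControl to 632.9 ± 40.4 in sg1 (SD, n = 3). Aaas differed by 0.59 (limma adjusted p = 5.27e-07) and Map3k12 by 0.60 (limma adjusted p = 1.76e-05). In each of the 5 the sg1 libraries did not overlap those of any other line. As for the chromosome, these calls may partly follow from how the table was limited. Hnrnpa1, which lies head to head with Cbx5 in the annotation, was not analysed here.

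**Figure D3:**
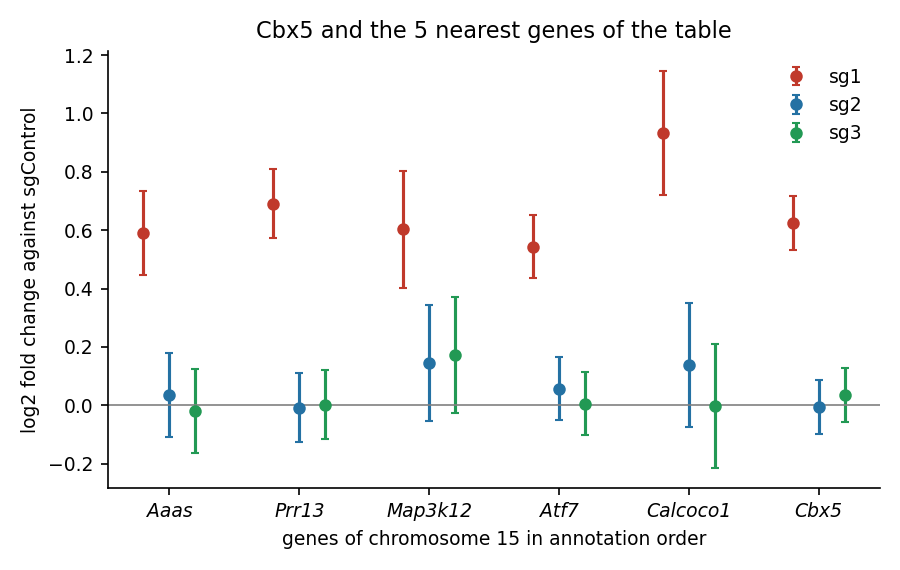
Log2 difference from sgControl with its 95% limma interval (vertical axis) for Cbx5 and the 5 nearest genes of the table on chromosome 15, in annotation order, for sg1, sg2 and sg3. In sg1 the 6 genes lie between 0.54 and 0.93 with intervals above 0, and every sg2 and sg3 interval includes 0.

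The other genes of the pathway were sparse in this table. Of 70 distinct genes in 5 lists (HP1 and chromodomain readers, H3K9 methyltransferases and cofactors, H3K9 demethylases, retroelement silencing factors and HP1 binding partners), 3 were in the table, one of them Cbx5. Its relatives Cbx1 and Cbx3, the 13 methyltransferase genes and the 11 demethylase genes were not analysed here. Trim24, a relative of the KAP1 corepressor, had a pattern different from that of Cbx5. It ranged over 1014 to 1192 in the control line and 1165 to 1240 with sg1, while sg2 gave 1377 to 1502 and sg3 gave 1376 to 1414. It was called higher in sg2 by 0.40 on the log2 scale (limma adjusted p = 5.47e-05) and in sg3 by 0.33 (limma adjusted p = 0.000359), and in sg1 the difference was 0.11 (limma adjusted p = 0.101). Bend3, a repressor of pericentromeric heterochromatin that binds HP1, fell by 0.53 in sg1 (limma adjusted p = 9.15e-07), from 1454 to 1561 in sgControl down to 1014 to 1111. In sg2 and sg3 its differences were -0.07 and -0.10 (limma adjusted p = 0.326 and 0.176).

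Of 12 linker and replication-independent histone genes, 4 were in the table, and 1 was called higher and 3 lower in sg1, with 2 lower in sg2 and 2 in sg3. Of all genes 39.1%, 29.4% and 33.4% were called lower in these lines, and 50.1% higher in sg1. The list's median was -0.74 in sg1, -1.27 in sg2 and -1.18 in sg3, beside 0.20, -0.017 and -0.027 for all genes. H1f0, the replacement linker histone and a chromosome 15 gene, had 755.7 to 997.8 in sgControl and 2163 to 2289 in sg1, a rise of 1.37 (limma adjusted p = 9.94e-10), and differed by 0.16 in sg2 and 0.04 in sg3 without passing the threshold. Hist1h1a, another linker histone, was called lower in all 3 lines, by -1.20 in sg1, -5.69 in sg2 and -2.30 in sg3, from a mean of 968.1 ± 30.1 in sgControl (SD, n = 3). H2afy2, a macroH2A variant, was also called lower in all 3, with a mean of 91.8 in sgControl and 22.4, 16.3 and 15.2 in sg1, sg2 and sg3. H2afy, the other macroH2A gene, was called lower in sg1 by -0.28 (limma adjusted p = 3.26e-05) and was at -0.07 in both sg2 and sg3.

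Cbx5 also appears on published lists of cell cycle genes, so the other members were read beside it. Of 97 distinct S phase and G2 or mitosis genes, 4 were in the table. Atad2, a chromatin ATPase on chromosome 15, was 4588 to 5087 in sgControl and 6532 to 8519 in sg1, a rise of 0.65 (limma adjusted p = 0.000153), and was at 0.05 in sg2 and 0.18 in sg3. Ung, a DNA repair glycosylase, fell by 0.41 in sg1 (limma adjusted p = 0.0006) and by 0.29 in sg3 (limma adjusted p = 0.0152), and was at -0.13 in sg2. Psrc1, a spindle protein, had means of 38.4 in sgControl and 39.7 in sg1, and of 61.0 and 3.75 in sg2 and sg3. In sg1, 1 of the 3 other members was called higher and 1 lower, beside 50.1% and 39.1% of all genes, and nothing particular to the list is read from so few.

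Marker genes of the labelled cell type were higher in sg1, as Cbx5 was, and lower in sg3, where Cbx5 was not called. Of 19 mammary epithelial markers, Krt8, Krt18, Krt19 and Cgn were in the table, and their summed value was 12350 to 12830 in the control line and 23030 to 25320 in sg1, against 12030 to 12350 for sg2 and 9465 to 10700 for sg3. All 4 were called higher in sg1 and lower in sg3, and 2 of them, Krt19 and Cgn, a tight junction protein, were called lower in sg2, beside 50.1% of all genes called higher in sg1, 33.4% lower in sg3 and 29.4% lower in sg2. Krt19 had means of 494.9 in sgControl and 622.3 in sg1, and of 401.8 and 182.2 in sg2 and sg3. The means of Cgn were 45.0 and 101.3, then 22.7 and 3.42, in that order of lines. Keratins 8 and 18, which define simple epithelium, were present in every library, with Krt8 at 5011 or more and Krt18 at 4282 or more. Both lie on chromosome 15 and rose in sg1 by 1.10 and 0.80. Of 18 immune, endothelial and fibroblast markers only Cd68, a lysosomal protein of macrophages, was in the table, at 102.5 to 154.4 in the control line and 282.8 to 326.8 in sg1, against 154.2 to 169.3 for sg2 and 138.5 to 158.8 for sg3. The part of these differences in the Cbx5 result was not tested.

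Genes with a pattern most like Cbx5 were ranked by Pearson correlation of log2(value + 1) over the 12 libraries, among genes with a mean of at least 50. The 5 highest were Ankrd66 at 0.994, Tcf20 at 0.992, Washc5 at 0.988, Prr13 at 0.985 and Itgb7 at 0.983. All but Ankrd66, on chromosome 17, lie on chromosome 15. Ankrd66 passed the filter only through sg1, the line where it is high, so its place in the ranking follows from the pattern ranked. The 12 points share 4 lines and their scaling, and the 3 sg1 libraries stand apart from the other 9, so these values describe the step at sg1. Their Spearman correlations, which weigh the order within the other 9 libraries as well, were 0.888, 0.566, 0.769, 0.713 and 0.699.

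Size did not enter that ranking. Tcf20, a transcriptional coregulator, differed by 0.64 in sg1 and Washc5, a subunit of the WASH complex, by 0.69, both near the 0.62 of Cbx5. Itgb7, an integrin beta subunit, differed by 1.07. Ankrd66 went from a mean of 15.1 in sgControl to 995.2 in sg1, with 11.2 in sg2 and 20.7 in sg3. The 3 lowest correlations belonged to Ak3, a mitochondrial adenylate kinase, at -0.990, Tarbp1, an RNA methyltransferase, at -0.990 and Mtcl1, a microtubule crosslinking factor, at -0.987. They fell in sg1 by 1.10, 0.65 and 0.87, and none of these lies on chromosome 15.

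**Figure D4:**
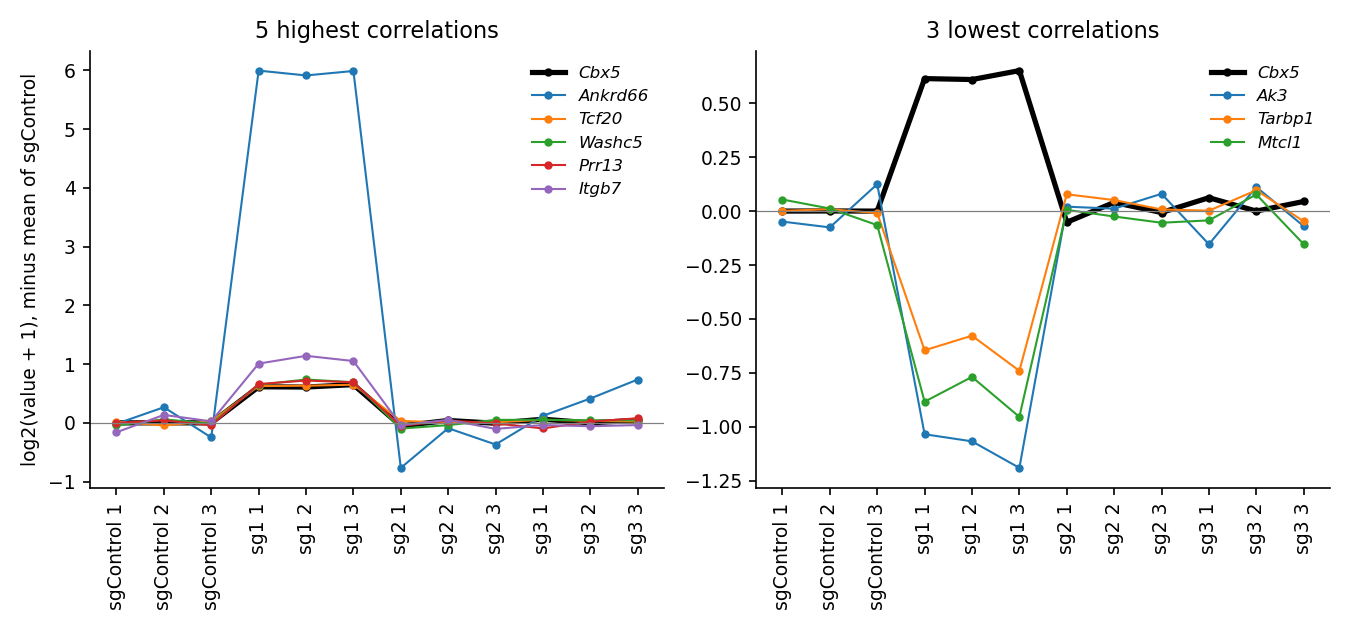
Log2(value + 1) minus the sgControl mean (vertical axis) in the 12 libraries (horizontal axis) for Cbx5 (black) with the 5 genes of highest correlation, left, and the 3 of lowest correlation, right, on separate scales. Lines join the points of a gene for reading only. All genes shown step at sg1, with Cbx5 at 0.62 and Ankrd66 at 5.97.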

How the data were processed

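RNA was sequenced from 12 libraries of 6DT1 lines, 3 for each of sgControl, sg1, sg2 and sg3. The deposited values are a normalized signal, estimated gene counts that the authors divided by 1 size factor per library. The submitters' processing notes name Partek, STAR 2.7.8a and DESeq2, and the study's methods state STAR alignment in Partek Flow, median ratio normalization and DESeq2 for RNA-seq aligned to a human genome. The mouse build, annotation and counter are not given in the sources used here. Size factors move all genes of a library together, and overlapping or duplicated genes can share reads. Of normalized values under 100, 79.8% to 85.0% were whole to within 0.05 after the inferred multiplier, so whole reads could not be recovered and no count model was used. The number of columns without a sample was 0.

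limma 3.58.1 in R 4.3.3 was fitted to log2(value + 1) of all 982 genes, with an intensity trend, robust estimates and all 4 groups in 1 fit. This scale understates changes of low genes. Two-sided p-values received Benjamini-Hochberg adjustment across all 982 genes and were called at 0.05. Chromosome, gene order and transcript length came from GENCODE M21 (GRCm38), where 972 genes matched. The fit was tested on simulated data. Counting errors cover counting only, as no molecular identifiers are known. The labels' protocol text covers a knockdown in human cells as well, and may not hold throughout for these lines.

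Named were Cbx5, the list members found in the table, up to 5 neighbours on each side of Cbx5 (none follow it in the table) and the 5 most and 3 least correlated genes. The members and lists were chosen with earlier results of these data known. Other statements chosen after values were seen say so. Alternatives covered scaling, pseudocount, a filter at a mean of 50, the replicate block, the groups in the fit, the intensity trend, a test against a 1.2-fold change, a length and GC trend, and each library left out. Scaling to the other chromosome 15 genes was added after the data were seen. Pairing was checked by correlating deviations from group means. Same-numbered libraries passed 0.1 in 3 of 3 pairs for sgControl and sg2 (0.11 to 0.33), and in 10 of 18 pairs over all lines, against 2 of 36 pairs of different numbers. What a replicate number stands for is not in the labels. No pair of replicates was a duplicate, with chi-square over its degrees of freedom of 13.0 or more.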

Additional observations from a re-analysis of the deposited data

Results flagged for a closer look

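The edited lines differed from each other, by the limma test of equality among sg1, sg2 and sg3 adjusted over all 982 genes, in 19 of the 20 genes named here for a reason other than their correlation with Cbx5, beside 75.3% of all genes. The value for Cbx5, whose presence in the table may rest on its sg1 values, was 5.25e-10 and is a description. Cbx5 was higher in 3 of 3 sg1 libraries than in every sg2 and sg3 library. Its neighbours gave 3.32e-07 for Aaas, 2.6e-09 for Prr13, 0.000404 for Map3k12, 4.8e-08 for Atf7 and 3.11e-07 for Calcoco1, with sg1 the highest line in each. Among chromatin genes the values were 0.00135 for Trim24, 4.82e-06 for Bend3, 7.69e-10 for H1f0, 4.61e-13 for Hist1h1a and 0.00054 for H2afy. H2afy2, at 0.48, did not pass. The cell cycle genes gave 0.000775 for Atad2, 0.0337 for Ung and 1.05e-09 for Psrc1. The markers gave 5.48e-13 for Krt8, 4.06e-12 for Krt18, 1.92e-09 for Krt19, 8.17e-11 for Cgn and 3.32e-06 for Cd68. The genes chosen for their correlation with Cbx5 were bound to differ, and their adjusted p-values, given as a description, were 6.71e-14 for Ankrd66, 2.75e-10 for Tcf20, 1.65e-09 for Washc5, 5.54e-11 for Itgb7, 3.63e-10 for Ak3, 6.45e-09 for Tarbp1 and 2.54e-09 for Mtcl1. A line is 1 clone with 3 libraries, so these are differences between lines.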

How the results depend on the processing

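The Cbx5 call in sg1 kept its direction and its side of the threshold under 12 of 13 alternatives and in all 12 fits without 1 library (0.61 to 0.63). Most of these could hardly move the estimate. It stayed at 0.62 with the pseudocounts, mean filter, replicate block, compared groups, trend setting and 1.2-fold test. Leaving out an sg2 or sg3 library could not move it either. Only the scalings and the length and GC trend could move it much. The sg1 difference was 0.41 with scaling to the table total and 0.32 with a length and GC trend removed. Scaling to the other chromosome 15 genes, which subtracts a median already seen to be near the Cbx5 value, by construction gave no call, with 0.030 in sg1, 0.036 for sg1 against sg2, -0.021 for sg1 against sg3, 0.024 for the mean of the lines, an adjusted p of 0.452 among the lines, and 1 in place of 5 neighbours called, while the genes called higher in sg1 went from 492 to 173 of 982. The values of sg2 and sg3 were small and moved with scaling. The sg2 difference was -0.21 with the table total and -0.19 with the trend removed, both past the threshold, 0.051 with scaling outside chromosome 15, and -0.029 to 0.017 without single libraries, above 0 without sg2 replicate 1. The sg3 difference was -0.067 with the table total, -0.13 with the trend removed and 0.13 with scaling outside chromosome 15, the last 2 past the threshold. The mean of the lines no longer passed with the table total (0.045), the trend removed (0.00048) or a test against a 1.2-fold change (0.22). That test lowered the counts of genes called from 876 to 511 in sg1, 586 to 221 in sg2, 588 to 195 in sg3, 982 to 271 in the mean, 664 to 361 and 645 to 381 for sg1 against sg2 and sg3, and 300 to 169 for sg3 against sg2. Of the genes called in sg1, 56.2% were higher, against 45.7% with the table total and 22.7% with scaling to chromosome 15. Of the 5 genes most like Cbx5, 3 were chosen again with the table total and 0 with Spearman correlation. The replicate block left every Cbx5 call as it was, with an adjusted p of 2.2e-10 in sg1. A fit of only the compared groups was not applicable to the mean, nor the 1.2-fold test to the comparison among lines. The causes were not tested. With 3 dishes of 1 line a group, depth unknown and no gene outside the table, scaling cannot be checked on unchanged genes.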
